A study of Homo sapiens with 8 samples.

Results

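Prostate-restricted androgen targets are a set of genes, several of which androgen is known to switch on in prostate epithelium. The 10 genes of the set were followed here in a breast cancer line: KLK2, KLK3, KLK4, KLK10, KLK11, TMPRSS2, SLC45A3, STEAP1, STEAP2 and STEAP4. They were taken by gene symbol from the 19775 genes on the array, and each was read by the probe set (a group of short oligonucleotides against 1 transcript) with the highest mean over all arrays. The cells were MDA-MB-453, an established human breast cancer line known for androgen receptor and for a lack of estrogen receptor. Cultures were kept for 3 days in steroid-poor conditions (5% charcoal-stripped serum, no phenol red) and then received vehicle alone or 10 nM 5α-dihydrotestosterone (DHT, the most potent natural androgen) for 4, 16 or 48 h. Each of the 4 groups had n = 2 biological replicates, 8 arrays in all. No time is given for the vehicle cultures, so an effect of DHT cannot be told apart from one of time in culture, and the 3 comparisons with vehicle share the same 2 control arrays.

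The androgen receptor is a transcription factor of the nucleus that binds DNA once DHT is bound to it. In prostate epithelium it acts with lineage factors such as FOXA1 and HOXB13, and several of the secreted and membrane proteins studied here are among its textbook products there. The set of genes that answer the hormone is known to differ between tissues.

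Among these 10 genes SLC45A3 fell under DHT, and TMPRSS2 and all 5 kallikreins had no called change. SLC45A3, a membrane transporter also called prostein, went from 9.80 on the log2 scale in vehicle to 8.97 after 48 h of DHT, 1.77-fold lower. Its second probe set had a log2 change of -0.26 at 48 h, with no call. STEAP1 rose by 0.35 log2 units of signal at 16 h and STEAP4 by 0.40 at 48 h, both with every signal under the background level of the arrays. In the same cultures FKBP5, an immunophilin that binds steroid receptor complexes, rose 10.1-fold at 48 h. Counted by call, 0 of the 10 genes changed at 4 h, where 0.177% of all genes were called. At 16 h 1 rose and 1 fell, with 6.85% of all genes called in either direction, 2.55% higher and 4.3% lower. At 48 h 1 rose and 1 fell as well, with 9.51% of all genes called, 3.13% higher and 6.38% lower. The median log2 change of the 10 was 0.02, 0.07 and 0.07 at 4, 16 and 48 h, beside 0.00, 0.02 and 0.01 over all genes. A call means an adjusted p below 0.05 in limma (a linear model with a spread shared across genes), with Benjamini-Hochberg adjustment over all 19775 genes.

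The promoters of KLK3, KLK2 and SLC45A3 are shown because the first pair carries a stretch long known as an androgen response element in prostate cells and the last belongs to the 1 gene of the set that fell. Each is the 250 bases before the RefSeq gene start in GRCh38.p14, 5′ to 3′ on the gene's strand. KLK3 lies at chr19:50854665-50854914 (plus strand), KLK2 at chr19:50873189-50873438 (plus strand) and SLC45A3 at chr1:205680510-205680759 (minus strand). Capitals mark the closest match to the idealised receptor element, the half-sites AGAACA and TGTTCT with any 3 bases between them, which reads the same on both strands.
KLK3: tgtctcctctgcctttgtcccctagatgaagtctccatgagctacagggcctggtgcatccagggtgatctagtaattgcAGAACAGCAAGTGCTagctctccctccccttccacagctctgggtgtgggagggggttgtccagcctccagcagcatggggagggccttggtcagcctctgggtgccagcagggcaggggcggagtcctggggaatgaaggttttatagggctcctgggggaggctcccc
KLK2: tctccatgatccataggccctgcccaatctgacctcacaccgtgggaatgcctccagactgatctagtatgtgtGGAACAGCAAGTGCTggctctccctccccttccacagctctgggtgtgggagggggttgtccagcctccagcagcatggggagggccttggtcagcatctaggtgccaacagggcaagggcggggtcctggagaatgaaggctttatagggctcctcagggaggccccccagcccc
SLC45A3: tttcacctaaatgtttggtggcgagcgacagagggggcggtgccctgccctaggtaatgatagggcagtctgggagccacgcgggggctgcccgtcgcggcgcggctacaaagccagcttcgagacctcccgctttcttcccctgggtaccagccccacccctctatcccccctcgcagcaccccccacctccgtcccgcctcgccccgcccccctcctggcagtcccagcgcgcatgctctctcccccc
The KLK3 stretch began 170 bases before the start and shared 10 of the 12 fixed letters with the element. A match at least that close stood in 1.18% of 35116 promoter windows of the same length. The KLK2 stretch began 176 bases before the start and shared 9 letters, as 9.17% of windows did at least, and the KLK2 and KLK3 windows had an identical run of 80 bases just behind it. The SLC45A3 window had no stretch with more than 6 of the 12 letters and is printed without capitals. RefSeq windows were found for 9 of the 10 genes, all but TMPRSS2, 13 windows in all. A window of STEAP2, not printed here, also shared 9 of the 12 letters. The half-site AGAACA stood on either strand in 1 of the 13 windows, that of KLK3, against 12.4% of all windows. These are matches of letters only, and no binding was measured.

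To separate expressed genes from background, the signals were set beside those of 82 olfactory receptor genes, taken here as mostly silent in this line. Whether each of them is silent was not tested. The background level was the 95th percentile of their mean log2 signals, 8.61. By that measure 4 of the 10 genes were above background, KLK3, KLK4, TMPRSS2 and SLC45A3, and so were 46.6% of all genes. KLK2 lay just under it at 8.50, followed by KLK11 at 8.23 and KLK10 at 7.58. STEAP2 at 6.83, STEAP4 at 6.81 and STEAP1 at 6.46 lay below the median of the olfactory receptor genes, 7.42. A log2 signal depends on how well each probe set binds, so these levels sort genes into above and below background and do not rank their transcripts. Even above the level a signal need not be a transcript: COL1A1, a collagen of fibroblasts, read 10.6 in this epithelial line, and olfactory receptor genes reached 9.21. KLK2 joined the expressed genes when the level was set at the 90th percentile. With the mean of all probe sets of a gene, 2 genes, KLK3 and SLC45A3, were above background.

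**Figure D1:**
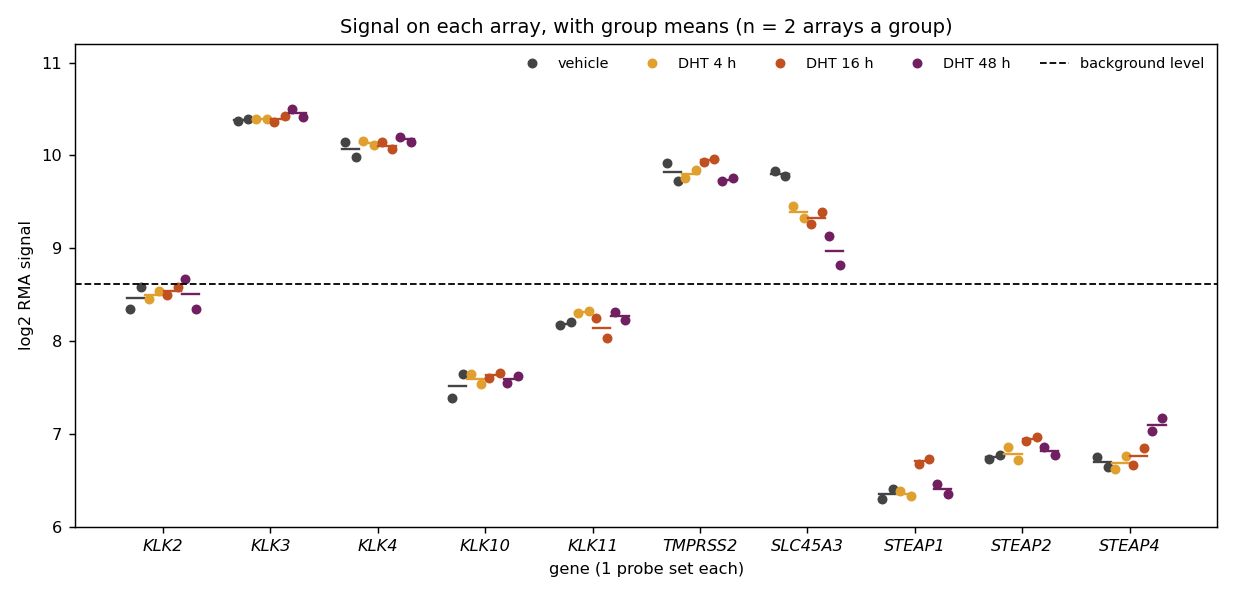
Log2 RMA signal of each of the 10 genes on each array (points) with the mean of each group (short lines, n = 2 arrays a group) and the background level of 8.61 (dashed line). KLK3, KLK4, TMPRSS2 and SLC45A3 lie above the dashed line, and SLC45A3 is the 1 gene whose groups step down from vehicle to 48 h.

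The other probe sets of the same genes, 15 in all, changed this picture for the kallikreins. For KLK3 the 2 others read 8.30 and 7.90, both below background, while the one with 10.4 is of the _x_at kind, which can bind related transcripts. For KLK4, 2 of 5 probe sets lay above the level, at 10.1 and 8.78, and the lowest read 6.39. For TMPRSS2, 2 of 4 were above, at 9.83 and 8.78, and the others read 8.33 and 6.57. Both probe sets of SLC45A3 were above, at 9.37 and 9.10, so it is the only gene of the 10 with every probe set over background. All 4 probe sets of KLK2, both of KLK10 and both of STEAP4 lay below. KLK11, STEAP1 and STEAP2 had 1 probe set each, also below.

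**Figure D2:**
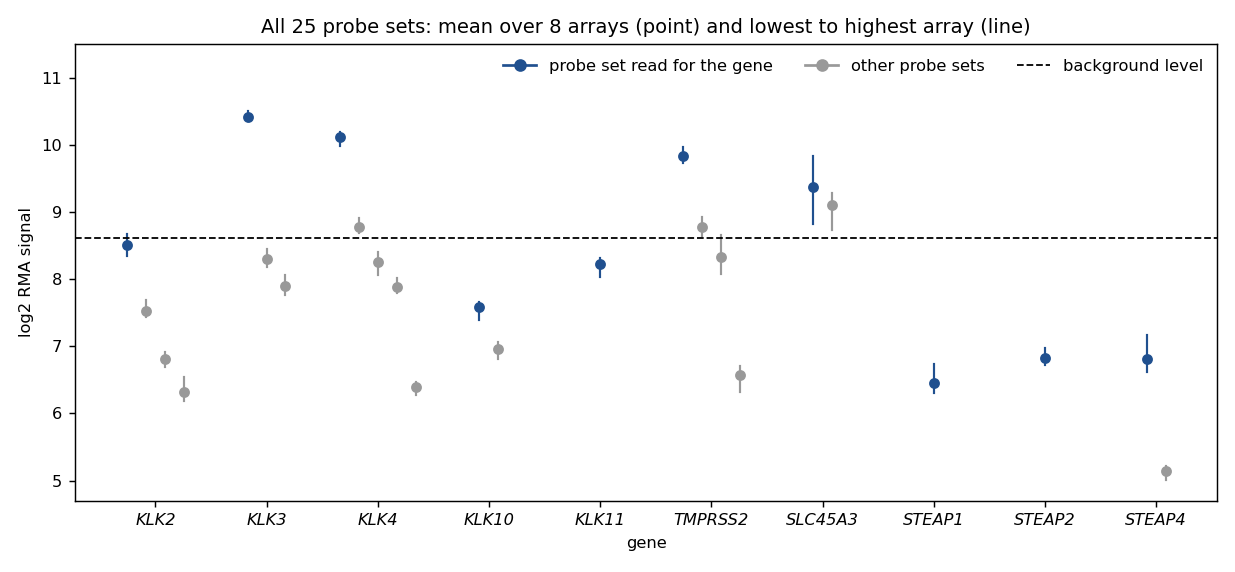
All 25 probe sets of the 10 genes, each with its mean log2 RMA signal over 8 arrays (point) and the lowest to highest array (line); the probe set read for the gene is blue, the others grey, and the dashed line is the background level of 8.61. The KLK3 probe sets are split between 10.4 and 8.30 or less, while both SLC45A3 probe sets lie above the line.

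Marker genes of the line were read the same way. All 8 luminal epithelial markers, KRT8, KRT18 and EPCAM among them, were above background, while ESR1 (8.47) and PGR (7.41), the estrogen and progesterone receptor genes, were below it. Of 13 other prostate-restricted genes 1 was above, SPDEF at 12.9, a factor that luminal breast cells also express. HOXB13, which marks prostate lineage, read 8.41, ACP3 (prostatic acid phosphatase) 7.80, FOLH1 (prostate-specific membrane antigen) 7.10 and MSMB, a secreted protein of seminal plasma, 4.86. SPDEF had a log2 change of 0.41 at 16 h (adjusted p = 0.0330 by limma) and was the 1 called gene of those 13 there, with 0 called at 4 h and at 48 h. Of 7 measured factors that work with the receptor, 2 rose at 16 h, and 1 rose and 3 fell at 48 h. FOXA1, a pioneer factor that opens chromatin for the receptor, fell by 0.72 at 48 h and the luminal factor GATA3 by 0.85 (adjusted p = 0.00064 and 0.00013 by limma). The coactivator NCOA1 rose by 0.51 at 48 h (adjusted p = 0.0045) and NCOA2 fell by 0.54 (adjusted p = 0.0433). Among 6 apocrine breast markers 2 rose and 2 fell at 48 h. The rises were those of AZGP1 (log2 change 1.67) and PIP (1.24), both secreted proteins, and the falls those of FOXA1 (-0.72) and ERBB2 (-0.65). Of the 8 luminal markers 1 rose and 2 fell at 48 h, and of 2 basal keratins KRT5 rose by 0.51, from a mean signal of 8.15 in vehicle, below background, to 8.66, just above it (adjusted p = 0.0067 by limma). Markers of fibroblasts (2 of 6 above background, mean signal of the list 7.79 to 7.94 over all arrays) and of immune and endothelial cells (1 of 5, mean 7.62 to 7.71) had 0 calls by limma at each time.

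Kallikreins are secreted serine proteases encoded side by side on chromosome 19, and KLK3, KLK2 and KLK4 follow one another there. KLK3 encodes prostate-specific antigen, which liquefies the seminal clot. Its signals were 10.37 and 10.40 in vehicle, 10.39 and 10.39 at 4 h, 10.36 and 10.42 at 16 h, and 10.50 and 10.41 at 48 h. All 8 arrays lay within 0.14 of each other, although both 48 h arrays were above both vehicle arrays, as in 25.8% of all genes. The log2 change at 48 h was 0.07 ± 0.09 (SE, n = 2), with a 95% interval from -0.13 to 0.26, and it was 0.01 at 4 h and at 16 h. FKBP5, read on the same arrays, went from 10.81 and 10.67 in vehicle to 13.97 and 14.18 at 48 h, with no overlap of the groups. Its log2 change was 3.34 ± 0.10 (SE, n = 2, adjusted p = 6.1e-09 by limma).

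KLK4, a protease of enamel and prostate, had signals of 10.15 and 9.98 in vehicle, 10.16 and 10.11 at 4 h, 10.14 and 10.07 at 16 h, and 10.20 and 10.15 at 48 h. The vehicle arrays differed from each other by more than any DHT group mean differed from theirs. The log2 change at 48 h was 0.11 ± 0.09 (SE, n = 2), with an interval from -0.10 to 0.31. KLK2 encodes the closest relative of prostate-specific antigen in sequence, and its signals ranged from 8.35 to 8.67 with overlap between vehicle and every DHT group. Its log2 changes were 0.03, 0.07 and 0.04 at 4, 16 and 48 h. KLK10 and KLK11, kallikreins that are found in many epithelia beside prostate, kept to a range of 0.27 and 0.29 over all arrays. The largest change of either from vehicle was 0.12 ± 0.10 for KLK11 at 4 h (SE, n = 2, adjusted p = 0.816 by limma). The adjusted p of the 5 kallikreins at 48 h ran from 0.562 for KLK4 to 0.878 for KLK2. The 95% intervals of all 5 at 48 h lay between -0.22 and 0.31, so a rise of the FKBP5 size is outside them. For the 3 kallikreins that sat below background, the intervals describe the signal of the probe set only. The same holds for KLK3, whose only probe set above background is of the _x_at kind, which can bind related transcripts. For KLK4 the interval is likewise that of 1 probe set. Only 2 of its 5 probe sets were above background, and their mean was not.

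The other 9 measured kallikreins of the family gave 0 calls by limma at each of the 3 times. Their median log2 change at 48 h was 0.15 and 3 of the 9 were above background, at most at 9.20.

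TMPRSS2 encodes a serine protease anchored in the cell membrane, and its androgen-driven promoter is known as the partner fused to ERG in prostate cancer. Its signals were 9.92 and 9.73 in vehicle, 9.76 and 9.84 at 4 h, 9.93 and 9.96 at 16 h, and 9.72 and 9.76 at 48 h. The 16 h arrays were the highest, by a narrow margin, and the 48 h arrays overlapped vehicle. Of all genes, 25.9% had both 16 h arrays above both vehicle arrays. The log2 change was 0.12 ± 0.10 at 16 h (SE, n = 2, adjusted p = 0.542 by limma) and -0.08 ± 0.10 at 48 h (adjusted p = 0.676). The interval at 48 h, from -0.29 to 0.13, leaves out a rise of the size seen in FKBP5. In a fit over all 41091 probe sets, which called 0.0195%, 3.39% and 5.16% of them at 4, 16 and 48 h, its 3 other probe sets had no call. The 16 h arrays of 1 of them spread from 8.08 on DHT 16 h replicate 2 to 8.65 on replicate 1 of the same group. DHT 16 h replicate 2 also had the largest gap between signals from the 3′ and 5′ ends of ACTB, a sign of RNA or labelling quality, at 1.52 log2 units against 0.20 to 0.94 on the others. The part of RNA quality in the TMPRSS2 values was not tested.

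Among 14 other membrane-bound serine proteases 0 were called at 4 h and at 16 h and 1 fell at 48 h, TMPRSS13 (log2 change -0.48, adjusted p = 0.0094 by limma). ST14 (matriptase) and PRSS8 (prostasin), the bright ones at 11.4 and 10.9, had no call. Of 6 serine protease inhibitors, SPINT1, which blocks matriptase, fell by 0.51 at 16 h and by 0.52 at 48 h (adjusted p = 0.0046 and 0.0029 by limma), and the other 5 had no call.

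SLC45A3 encodes a transporter of the sugar transporter-like SLC45 family, and its protein is used by pathologists as a marker of prostate origin. Its signals were 9.83 and 9.77 in vehicle, 9.46 and 9.33 at 4 h, 9.27 and 9.39 at 16 h, and 9.13 and 8.82 at 48 h. Every DHT array lay below both vehicle arrays, and both 48 h arrays lay below all others. Of all genes, 20.8%, 21.1% and 26.1% had both arrays at 4, 16 and 48 h below both vehicle arrays. In RNA from a whole culture, fewer cells with the transcript and less of it per cell cannot be told apart. The log2 change was -0.41 ± 0.12 at 4 h (SE, n = 2, adjusted p = 0.345 by limma), which was not called. It was -0.47 ± 0.12 at 16 h (adjusted p = 0.0302) and -0.83 ± 0.12 at 48 h (adjusted p = 0.00083), with an interval at 48 h from -1.08 to -0.57. The 48 h change was the 258th from the lowest among all genes. The step from 4 h to 48 h was -0.42 ± 0.12 (adjusted p = 0.0588) and that from 16 h to 48 h -0.35 ± 0.12 (adjusted p = 0.251), neither of which was called. The step from 4 h to 48 h became a call with a filter on dim genes (adjusted p = 0.0337 by limma), with a trended prior (0.0494) and without DHT 48 h replicate 1 (log2 change -0.57, adjusted p = 0.0344).

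The call at 48 h held without each of the 8 arrays in turn, with a log2 change between -0.985 and -0.67 and an adjusted p of at most 0.0124 by limma. The call at 16 h was lost without vehicle replicate 1 (adjusted p = 0.183), vehicle replicate 2 (0.0843), DHT 16 h replicate 1 (0.103) or DHT 16 h replicate 2 (0.0549). It was also lost with all probe sets fitted together (0.0777), the mean of both probe sets (0.102) and equal housekeeping signal (0.0537). The second probe set of SLC45A3 moved less, reading 9.25 and 9.19 in vehicle, 9.28 and 9.20 at 4 h, 9.23 and 8.73 at 16 h, and 9.13 and 8.80 at 48 h. Its log2 change at 48 h was -0.26 ± 0.17 (SE, n = 2, adjusted p = 0.478 by limma over all probe sets). In that fit the first probe set kept its call at 48 h (adjusted p = 0.0054), and the difference between the 2 probe sets was not tested. The second probe set was lowest on DHT 16 h replicate 2 and DHT 48 h replicate 2, the 2 arrays with the largest ACTB 3′ to 5′ difference (1.52 and 0.94). The part of RNA quality in this was not tested. Without DHT 48 h replicate 2 the first probe set still read -0.67 at 48 h (adjusted p = 0.0105 by limma).

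**Figure D3:**
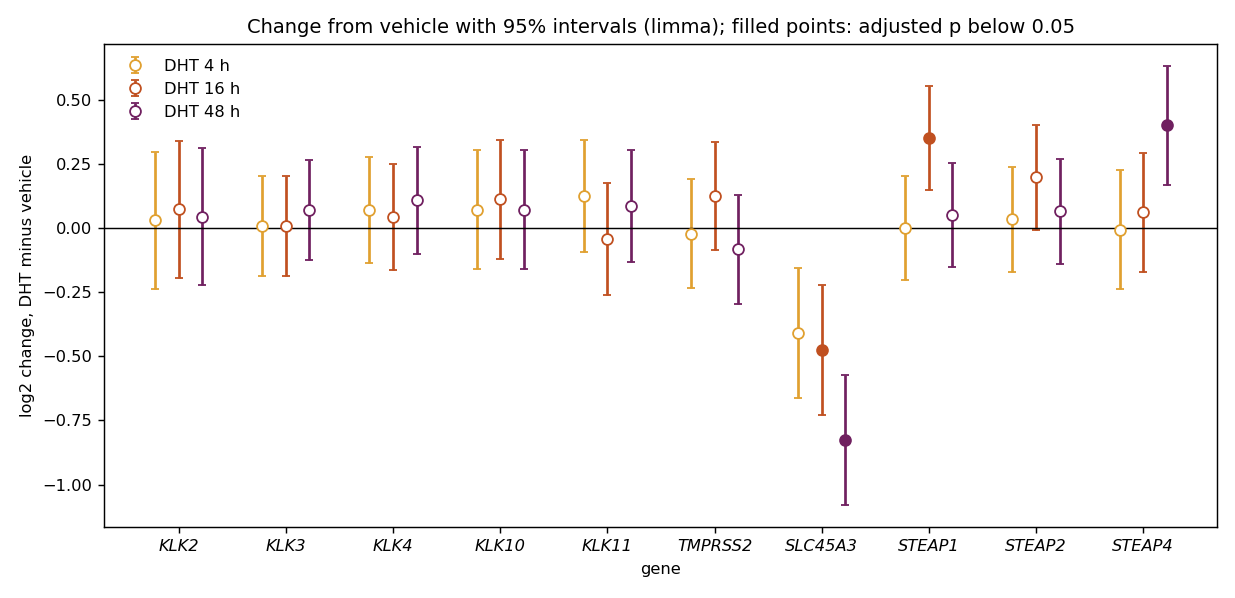
Log2 change from vehicle at 4, 16 and 48 h of DHT for each of the 10 genes, with 95% intervals from limma (n = 2 arrays a group); filled points have an adjusted p below 0.05 over all genes. SLC45A3 runs down to -0.83 at 48 h, STEAP1 at 16 h and STEAP4 at 48 h are the filled points above 0, and all intervals of the kallikreins and TMPRSS2 cross 0.

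The genes next to SLC45A3 on chromosome 1 did not share a call. ELK4, an ETS transcription factor whose transcript is known to be joined to SLC45A3 in prostate cells, had a log2 change of 0.01 at 48 h (adjusted p = 0.973 by limma), and NUCKS1 had -0.31 (adjusted p = 0.173). Within the SLC45 family SLC45A4 fell by 0.48 at 48 h (adjusted p = 0.0185 by limma), and SLC45A1 and SLC45A2 lay below background with no call. Over the 8 arrays the genes above background whose signal was most like that of SLC45A3 were RND1 (Pearson r = 0.964), PDE4B (r = 0.961) and ZNF385A (r = 0.957), out of 9212 searched. PDE4B, a cyclic AMP phosphodiesterase, fell by 2.12 at 48 h, RND1, a small GTPase, by 0.42 and ZNF385A, a zinc finger protein, by 0.47. These correlations describe 8 arrays in 4 groups of 2 and carry no test.

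STEAP proteins are membrane proteins of a family named after an antigen of prostate epithelium, and STEAP2 and STEAP4 reduce iron and copper ions before uptake. STEAP1 read 6.30 and 6.41 in vehicle, 6.38 and 6.33 at 4 h, 6.68 and 6.73 at 16 h, and 6.46 and 6.35 at 48 h. The 16 h arrays stood above all 6 others, and the 48 h arrays overlapped vehicle. Both 16 h arrays were above both vehicle arrays in 25.9% of all genes. The log2 change was 0.35 ± 0.09 at 16 h (SE, n = 2, adjusted p = 0.0448 by limma) and 0.05 ± 0.09 at 48 h (adjusted p = 0.812). The call at 16 h was lost without each of the 8 arrays in turn. The adjusted p was 0.275 and 0.0788 without vehicle replicate 1 or 2, 0.0780 without either 4 h array, 0.0690 and 0.162 without DHT 16 h replicate 1 or 2, and 0.0597 without either 48 h array. It was lost as well with all probe sets (0.0895), without _s_at and _x_at probe sets (0.0597), with quantile normalization (0.0501), only the groups compared (0.118) or a trended prior (0.0552). STEAP2, the next gene on chromosome 7, was likewise highest at 16 h, with a smaller step. Its signals were 6.73 and 6.78 in vehicle, 6.86 and 6.72 at 4 h, 6.93 and 6.97 at 16 h, and 6.86 and 6.77 at 48 h. Its log2 change at 16 h was 0.20 ± 0.09 (adjusted p = 0.275 by limma).

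STEAP4 read 6.76 and 6.64 in vehicle, 6.62 and 6.76 at 4 h, 6.67 and 6.85 at 16 h, and 7.03 and 7.17 at 48 h. Both 48 h arrays lay above the other 6. In 22.7% of all genes both 48 h arrays were above both 4 h arrays. The log2 change at 48 h was 0.40 ± 0.10 against vehicle (SE, n = 2, adjusted p = 0.0357 by limma). Against 4 h it was 0.41 ± 0.10 (adjusted p = 0.0443), the 1 call among the 10 genes in that comparison, where 6.13% of all genes were called and 2.41% were called higher. The call against vehicle was lost without vehicle replicate 1 (adjusted p = 0.0944) or 2 (0.155), either 4 h array (0.0539), DHT 48 h replicate 1 (0.0887) or DHT 48 h replicate 2 (0.184), and it held without either 16 h array. It was also lost with all probe sets (0.0792), with the mean of both probe sets (log2 change 0.25, adjusted p = 0.0776 by limma) and with quantile normalization (0.0610). The second STEAP4 probe set, dimmer still at 5.14, had a log2 change of 0.10 at 48 h with no call. All STEAP signals lay in the range where olfactory receptor genes lie, so the size of the transcript change behind these steps cannot be read from them.

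The genes most like STEAP1 over the 8 arrays were LPCAT4 (Pearson r = 0.984), HPX (r = 0.957) and BAHCC1 (r = 0.954), and those most like STEAP4 were ARPC1B (r = 0.984), EMC7 (r = 0.967) and CHID1 (r = 0.966). All 6 had no call at 48 h, where STEAP1 had none either. Their changes at 16 h, the time of the STEAP1 call, are not given here. STEAP3, another member of the family, and STEAP1B lay below background with no call. Of 8 other genes of iron and copper uptake and storage 7 were above background. The iron exporter SLC40A1 fell by 1.03 at 48 h (adjusted p = 0.00012 by limma), the duodenal iron reductase CYBRD1 by 1.06 (adjusted p = 0.0018) and the metal importer SLC39A14 by 0.47 (adjusted p = 0.0242). The ferritin light chain FTL rose by 0.59 at 16 h (adjusted p = 0.0037), where SLC40A1 fell by 0.64 (adjusted p = 0.0048), and 0 of the 8 were called at 4 h.

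The 10 genes can be read beside androgen-induced genes of this line. From vehicle to 48 h the mean signal of the aquaglyceroporin AQP3 went from 8.40 to 14.9, that of the conjugating enzyme UGT2B28 from 7.74 to 12.2, that of the tight junction protein CLDN8 from 7.27 to 11.1 and that of the scaffold IQGAP2 from 7.57 to 10.3. The vehicle means of these 4 genes were below the background level, so no fold is given for them. These genes, and FKBP5, were picked for their known rise in these data, so their direction is no independent evidence. The log2 changes of the 10 genes at 48 h ran from -0.83 to 0.40, and 95% of all genes had a log2 change between -0.63 and 0.43 at 48 h. A moderated F test over the 3 times called 1 of the 10 genes, SLC45A3 (adjusted p = 0.0049 by limma), and 8.9% of all genes. From 4 h to 16 h 0 of the 10 were called by limma, with 3.05% of all genes called and 1 of the 10 at an unadjusted p below 0.05, as were 2818 of all 19775 genes. From 16 h to 48 h 0 were called, with 0.829% of all genes called and 3 of the 10 at an unadjusted p below 0.05, as were 2125 of all genes.

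**Figure D4:**
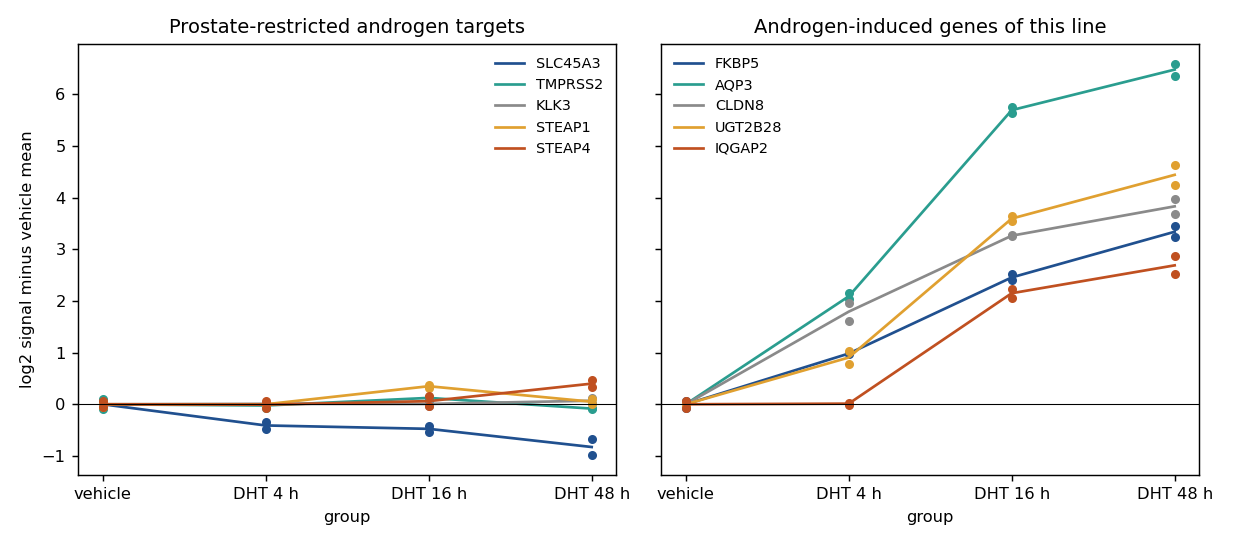
Log2 signal minus the vehicle mean in the 4 groups for 5 of the prostate-restricted genes (left) and for 5 genes picked for their known androgen response in this line (right), on the same vertical scale; points are arrays and lines join group means (n = 2). FKBP5 ends at 3.34 at 48 h, while the prostate-restricted genes stay between -0.83 and 0.40 in their group means. The vehicle means of AQP3, UGT2B28, CLDN8 and IQGAP2 lay below background, so their lines show changes of signal only.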

How the data were processed

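Total RNA of 8 MDA-MB-453 cultures was hybridised to Affymetrix expression arrays. The deposited table holds log2 signals of 54675 probe sets, normalised by the authors with RMA (robust multi-array average), per the submitters' processing notes. Its version is not given, and no scanner files were used. RMA puts all arrays on 1 distribution, so a change shared by most genes would not be seen, and it compresses changes of dim signals.

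The 62 control probe sets were set aside. Of the rest, 41091 carried 1 gene symbol in GEO's platform annotation, 1801 several and 11721 none, and those with several or none were not used. Each of 19775 genes was read by its brightest probe set. Of the symbols, 19738 were in the RefSeq annotation of GRCh38.p14, among them all 10 genes reported.

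Using limma 3.58.1 (R 4.3.3), 1 model with 4 group means was fitted across the 8 arrays (4 residual and 7.21 prior degrees of freedom), with no filter on dim genes and two-sided tests. Errors are standard errors from that fit. An exact permutation test of 2 arrays against 2 cannot go below p = 0.333 and was not run. The number of arrays limits the precision. The scripts were tested on simulated data.

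The 10 genes, the other lists and the reference genes were chosen with earlier results of these data known. Named were all 10 genes, up to 4 called genes of each other list, the prostate genes FOLH1, MSMB, ACP3 and HOXB13 by level, AQP3, CLDN8, FKBP5, FOXA1, IQGAP2 and UGT2B28, and the 3 genes most correlated with each called gene of the set. ELK4 and NUCKS1 were added as neighbours. COL1A1, ESR1, PGR, ST14, PRSS8, SLC45A1, SLC45A2, STEAP3, STEAP1B and the luminal keratins were named after their values were seen. The alternatives tried were other probe set choices, a filter on dim genes, scalings, variance priors, a replicate block, other background levels and leaving out each array. Replicates correlated across genes at r = 0.995 to 0.997.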

Additional observations from a re-analysis of the deposited data

Results flagged for a closer look

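The STEAP4 signal under DHT was higher at 48 h than at 4 h, with both 48 h arrays above both 4 h arrays. An effect of DHT cannot be told apart from one of time in culture in this step. All STEAP4 signals lay below background, and its second probe set had a log2 change of 0.13 with no call. For the probe set read, the log2 step was 0.41 and was called (adjusted p = 0.0443 by limma, n = 2). This call was lost without each vehicle array (adjusted p = 0.0581), DHT 4 h replicate 1 (0.336) or 2 (0.111) and DHT 48 h replicate 1 (0.105) or 2 (0.245).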

How the results depend on the processing

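SLC45A3 at 48 h kept its direction and its call under every alternative tried, with log2 changes from -0.985 to -0.54. Each alternative read its first probe set or the mean of both. Its second probe set alone had a log2 change of -0.26 at 48 h, with no call (adjusted p = 0.478 by limma over all probe sets). Of 82 recomputed values of the 5 called changes, 0 changed sign and 40 lost the call. Among 890 recomputed values that were not called, 70 changed sign, all without a call. The count of the 10 genes called at 16 h, 2 as reported, was 0 with all probe sets fitted together. It was 1 without _s_at and _x_at probe sets (8 of the 10 genes), with the mean of all probe sets, with a filter on dim genes (4 of the 10 genes), with quantile normalization, with equal housekeeping signal, with only the groups compared, with a trended prior and with the replicate block. The count at 48 h, 2 as reported, was 1 with all probe sets, the mean of all probe sets, the filter and quantile normalization. That from 4 h to 48 h, 1 as reported, was 0 with all probe sets, without _s_at and _x_at probe sets, with the mean and with quantile normalization, and 2 with the trended prior; under the filter it stayed 1, with SLC45A3 called and STEAP4, below background, not tested. Leaving out 1 array gave 0 to 1 at 16 h, 1 to 2 at 48 h, 0 to 1 from 4 h to 48 h and 1 to 2 for the F test, which called 2 with equal housekeeping signal. The number above background was 2 with the mean of all probe sets. Under the replicate block STEAP1 lost its call at 16 h (adjusted p = 0.0660) and no other call among the 10 genes was lost. Arrays of 1 replicate number did not deviate together (correlations from -0.244 to 0.196), so the numbers were not taken to pair samples. Dim signals limit KLK2, KLK10, KLK11 and the STEAP genes. KLK3 was above background by 1 of its 3 probe sets, which is of the _x_at kind. KLK4 was above it by 2 of 5 probe sets and TMPRSS2 by 2 of 4.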
